A study of Homo sapiens with 4 samples.

Results

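The genes described here are the liver X receptors (LXRs), their retinoid X receptor (RXR) partners and 5 genes known as direct LXR targets in sterol and membrane lipid handling. They were taken from the gene count table by symbol: NR1H2, NR1H3, RXRA, RXRB, ABCA1, ABCG1, MYLIP, SMPDL3A and LPCAT3. All 9 symbols were found, each at 1 Ensembl ID, among 64252 IDs in the table, and 8 had enough counts to be tested. IDs without a name in the sources used were not assigned to any member, which may matter for RXRB, as described below. The cells were Jurkat, a human line of T cell acute lymphoblastic leukemia (T-ALL). They had been transfected either with a scrambled short hairpin RNA (sh-Scb, 2 libraries) or with a hairpin against the transcription factor SOX4 (sh-SOX4, 2 libraries). Both groups thus carry a hairpin, and untransfected cells and a second SOX4 hairpin were not analysed here. The labels do not state whether either group was a clone, a pool or a selected culture, nor the time after transfection.

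LXRs are nuclear receptors that bind oxysterols, the oxidized derivatives of cholesterol, and sit on DNA as heterodimers with an RXR. Without ligand they hold corepressors at their target genes, and with ligand they exchange these for coactivators. Their targets move cholesterol out of the cell, lower its uptake and change the lipids of membranes. In T cells the pathway is known for restraining proliferation by limiting the sterol available for new membranes.

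Of the 4 receptor genes 3 rose, and of the 5 target genes 3 fell. NR1H2, NR1H3 and RXRA rose by 1.30-fold to 1.52-fold in sh-SOX4. ABCA1, ABCG1 and MYLIP fell to between 55.1% and 64.5% of the sh-Scb level. RXRB and LPCAT3, whose values are uncertain as described below, did not pass the test, and SMPDL3A was nearly uncounted. Of the 8 tested members, 3 rose and 3 fell at an adjusted p under 0.05. Without sh-SOX4 replicate 2 only 1 member, RXRA, was called higher. Across all 19897 IDs tested, 44.1% were called, 23.2% higher and 20.9% lower. The higher share of the calls was 52.5%, and 40.8% when libraries were scaled to their totals, which moved the median of all IDs to -0.11 on the log2 scale. The members kept their directions and calls under that scaling. A call is thus common in this comparison, and nothing particular to the members is read from their count. The median log2 fold change of the 8 members was -0.17, against -0.01 over all IDs tested. In bulk RNA, fewer cells of a type and less RNA per cell cannot be told apart.

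For 2 of the falling genes the sequence before the start site is shown. Both transcripts fell, while their promoter windows differ in a match to a known LXR motif. An LXR-RXR pair is known to prefer 2 copies of a hexamer in the same orientation, 4 bases apart, called DR4. The RefSeq promoter windows on GRCh38.p14 run from 250 bases before to 50 bases after a start site and cover 7 members with 12 windows, leaving ABCG1 and SMPDL3A without one. Each window was searched on both strands for a DR4, taken as 2 copies of GGTNA on the same strand with 5 bases of any kind between them, where N is any base. It was also searched for the E-box CACGTG, which is bound by MYC among others, for the single half-site AGGTCA and for ACAAAG, a core bound by SOX proteins. A half-site can lie within a DR4 match. The ABCA1 stretch below ends where an annotated ABCA1 exon begins, on the minus strand at chr9:104928238-104928405, and its capitals mark the E-box. The MYLIP stretch is on the plus strand at chr6:16128836-16129085 and holds no match to any of the 4 motifs. Sequence outside the windows and other spellings of the motifs were not searched. The lack of a match thus does not show that MYLIP has no LXR site. The third line is the DR4 match of ABCA1, read on the plus strand at chr9:104928210-104928224, with the 2 copies of the repeat in capitals.
ABCA1 upstream: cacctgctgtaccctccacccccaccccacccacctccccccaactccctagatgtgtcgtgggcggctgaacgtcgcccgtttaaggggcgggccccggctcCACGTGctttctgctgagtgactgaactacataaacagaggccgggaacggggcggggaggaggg
MYLIP upstream: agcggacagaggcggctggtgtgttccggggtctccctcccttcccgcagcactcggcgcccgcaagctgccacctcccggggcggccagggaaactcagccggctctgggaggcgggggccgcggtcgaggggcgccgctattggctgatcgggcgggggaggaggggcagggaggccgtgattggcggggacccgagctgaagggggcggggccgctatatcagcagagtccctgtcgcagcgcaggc
ABCA1 DR4 match: GGTTActatcGGTCA

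The DR4 match in ABCA1 begins 69 bases before the RefSeq start site, in a stretch that another ABCA1 transcript in GENCODE uses as exon. It was the only DR4 match in the 12 windows. Of 35116 windows of the same length in the table, 0.626% held one. The E-box of ABCA1 begins 147 bases before the start site, and 7.26% of all windows hold this E-box. The single half-site was present in 1 of 4 NR1H3 windows, 140 bases before its start site, against 13.8% of all windows. The SOX core was found in the NR1H2 window, 191 bases before the start site, and in 1 of 2 RXRB windows, against 16.1% of all windows. The upstream stretches of ABCA1 and MYLIP were 66.1% and 73.6% G and C. These are matches of letters, not measured binding.

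The libraries held 29093287 to 36636219 counts, so that 3 counts correspond to 0.0794 to 0.101 CPM. CPM is the count scaled to library size with edgeR's TMM factors, and a fold is the sh-SOX4 level over the sh-Scb level. The SOX4 transcript stood at 271 and 277 CPM in sh-Scb and at 191 and 199 CPM in sh-SOX4, so the reduction was partial. All 14 T cell markers were tested, and 8 rose, 3 fell and 3 did not pass. CD3G of the T cell receptor complex rose 2.03-fold and the costimulatory receptor CD28 rose 1.55-fold, while CD4 and CD247 fell to 65.4% and 79.3% of the sh-Scb level. LCK, the T cell receptor kinase, did not pass, at 411 to 433 CPM. The 14 markers summed to 1915 and 1959 CPM in sh-Scb and to 2253 and 2333 CPM in sh-SOX4. Of 10 macrophage and monocyte markers LYZ and MARCO were at 0 in every library, and 6 were tested. AIF1 rose from 8.99 and 9.20 to 11.3 and 12.0 CPM, with an edgeR adjusted p of 0.0456, and passed under 2 of 11 other settings. CD68, which shares 85.8% of its exonic bases with other annotated genes, fell from 5.13 and 8.27 to 4.19 and 3.73 CPM. It passed under 6 of 10 other settings. These 10 markers summed to 17.3 and 21.5 CPM in sh-Scb and to 18.8 and 19.8 CPM in sh-SOX4. Of 6 hepatocyte markers ALB was at 0, and APOB, the only one tested, rose 2.60-fold with an edgeR adjusted p of 0.00371. The 6 summed to 1.96 and 1.83 CPM against 5.71 and 3.53. Of 6 B cell markers 5 were tested, and 1 rose, 2 fell and 2 did not pass. CD79B rose from 0.476 and 0.365 to 2.11 and 0.907 CPM. CD79A fell from 67.2 and 65.9 to 13.1 and 13.4 CPM, and CD22 fell from counts of 20 and 15 to counts of 0 and 1. The 6 B cell markers, mostly through CD79A, summed to 69.4 and 67.4 CPM in sh-Scb and to 16.7 and 15.1 CPM in sh-SOX4. The part of these markers in the results was not tested.

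NR1H2 encodes LXR-beta, the receptor found in nearly all tissues (ENSG00000131408, chromosome 19, 50329653 to 50382982 on GRCh38, plus strand). It was counted 624 and 499 times in sh-Scb, against 651 and 673 times in sh-SOX4. This gave 16.5 and 16.6 CPM in sh-Scb against 20.5 and 22.6 CPM in sh-SOX4. Both sh-SOX4 libraries lay above both sh-Scb libraries, which were almost equal. The rise was 1.30-fold with a 95% interval of 1.11 to 1.53, a log2 fold change of 0.38 (SE 0.10) and an edgeR adjusted p of 0.0131. Without sh-SOX4 replicate 2 the call was lost, at an edgeR adjusted p of 0.0981. Of the called IDs that rose, 69.4% rose by more than NR1H2.

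NR1H3 encodes LXR-alpha, the receptor known from liver, fat and macrophages (ENSG00000025434, chromosome 11, 47248300 to 47269032, plus strand). Its counts were 275 and 256 for sh-Scb, against 336 and 356 for sh-SOX4. The CPM values of 7.27 and 8.50 in sh-Scb and of 10.6 and 12.0 in sh-SOX4 did not overlap. The rise was 1.43-fold (95% interval 1.14 to 1.80), or 0.52 (SE 0.15) on the log2 scale, with an edgeR adjusted p of 0.0171. The sh-Scb libraries differed from each other more for NR1H3 than for NR1H2. The call was lost without sh-Scb replicate 1, at an edgeR adjusted p of 0.0837, and without sh-SOX4 replicate 2, at 0.0984. Of its exonic bases, 4.17% are shared with ACP2 on the other strand, a lysosomal phosphatase gene that did not pass the test.

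RXRA, the obligate partner in many receptor dimers, had the largest rise of the 8 tested members (ENSG00000186350, chromosome 9, 134317098 to 134440585, plus strand). It was counted 948 and 775 times in sh-Scb, against 1200 and 1168 times in sh-SOX4. The levels were 25.1 and 25.7 CPM in sh-Scb, against 37.8 and 39.2 CPM in sh-SOX4. Libraries of a group lay close together and the groups far apart. The rise was 1.52-fold (95% interval 1.33 to 1.72), or 0.60 (SE 0.083) on the log2 scale, with an edgeR adjusted p of 0.000221. It passed the test under all 11 other settings tried. Still, 40.6% of the called IDs that rose did so by more.

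RXRB, the second RXR gene, lies on chromosome 6 from 33193588 to 33200688 on the minus strand (ENSG00000204231). It was counted 217 and 146 times in sh-Scb, against 139 and 131 times in sh-SOX4, or 5.74 and 4.85 against 4.38 and 4.40 CPM. The groups did not overlap, but the gap was smaller than the spread within sh-Scb. The log2 fold change was -0.27 (SE 0.19) with an edgeR adjusted p of 0.277. Its interval of 0.618-fold to 1.11-fold includes both a fall and no change. RXRB lies in the major histocompatibility complex, for which the hg38 assembly also holds alternate haplotype sequences. The table has 7661 IDs that neither source of names used here lists, with 1.80% of all counts. Whether some of these take reads of RXRB was not determined. If they do, the level given here is too low by an unknown amount, which could exceed the level itself, and the change may differ too. Of its exonic bases, 6.22% are shared with the zinc transporter gene SLC39A7 on the other strand. The third member of the family, RXRG, was at 0 counts in all 4 libraries.

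**Figure D1:**
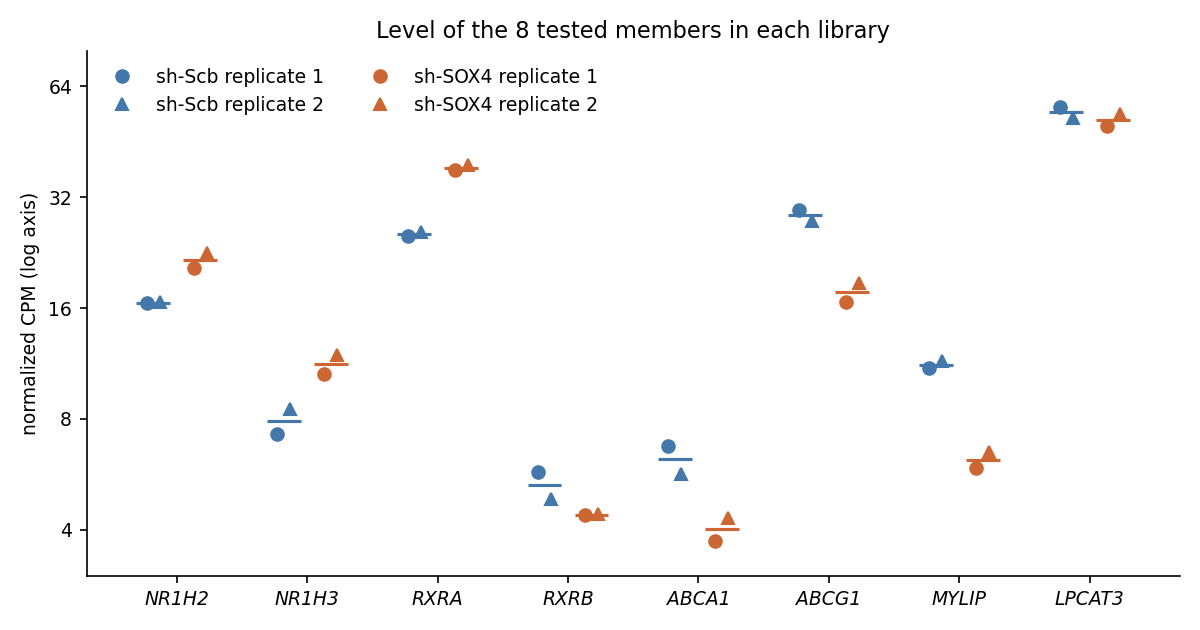
Normalized CPM (log axis) of the 8 tested members in each library, with a horizontal line at the mean of 2 libraries. NR1H2, NR1H3 and RXRA lie higher in both sh-SOX4 libraries, ABCA1, ABCG1 and MYLIP lower in both, and the LPCAT3 libraries of the groups overlap.

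ABCG1 loads cholesterol onto high-density lipoprotein and moves sterols between membranes inside the cell (ENSG00000160179, chromosome 21, 42199689 to 42297244, plus strand). It was counted 1117 and 830 times in sh-Scb, against 528 and 558 times in sh-SOX4. That is 29.5 and 27.6 CPM in sh-Scb against 16.6 and 18.7 CPM in sh-SOX4. Every sh-SOX4 library was below every sh-Scb library. ABCG1 fell to 61.9% of the sh-Scb level (95% interval of the fold 0.528 to 0.726), or -0.69 (SE 0.10) on the log2 scale, with an edgeR adjusted p of 0.000368. It passed under all 11 other settings tried.

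ABCA1 passes cholesterol and phospholipid to lipid-poor apolipoprotein A-I, the first step of high-density lipoprotein formation (ENSG00000165029, chromosome 9, 104781002 to 104928237, minus strand). It was counted 255 and 171 times in sh-Scb, against 118 and 128 times in sh-SOX4. The levels were 6.74 and 5.68 CPM in sh-Scb, against 3.72 and 4.30 CPM in sh-SOX4. The groups did not overlap, with libraries of each group further apart than those of ABCG1 in proportion. ABCA1 fell to 64.5% of the sh-Scb level (95% interval of the fold 0.479 to 0.868), or -0.63 (SE 0.19) on the log2 scale, with an edgeR adjusted p of 0.0224. This call was the least stable of the 6. The adjusted p became 0.0796 in DESeq2, 0.143 in edgeR without sh-Scb replicate 1 and 0.103 in edgeR without sh-SOX4 replicate 1.

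MYLIP, also called IDOL, is the ubiquitin ligase that marks lipoprotein receptors for degradation (ENSG00000007944, chromosome 6, 16129125 to 16148248, plus strand). Its counts were 416 and 345 for sh-Scb, against 187 and 193 for sh-SOX4. The levels were 11.0 and 11.5 CPM in sh-Scb, against 5.90 and 6.48 CPM in sh-SOX4. Of the 8 tested members it had the largest change, to 55.1% of the sh-Scb level (95% interval of the fold 0.441 to 0.690). The log2 fold change was -0.86 (SE 0.14) with an edgeR adjusted p of 0.00084, and it passed under all 11 other settings tried. Among the called IDs that fell, 36.4% fell by more than MYLIP, 47.4% by more than ABCG1 and 51.8% by more than ABCA1.

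LPCAT3, the acyltransferase that places polyunsaturated chains into membrane phospholipids, was the most highly counted member (ENSG00000111684, chromosome 12, 6976186 to 7018510, minus strand). Its counts were 2133 and 1580 for sh-Scb, against 1584 and 1601 for sh-SOX4. At 56.4 and 52.5 CPM against 49.9 and 53.8 CPM, the groups overlapped. The log2 fold change was -0.07 (SE 0.070) with an edgeR adjusted p of 0.45, and the interval of the fold ran from 0.854 to 1.06. However, 65.6% of the annotated exonic bases of LPCAT3 also lie in EMG1, a ribosome biogenesis gene on the other strand. EMG1 rose from 27.3 and 23.9 CPM to 59.8 and 61.2 CPM, with an edgeR adjusted p of 1.93e-06. No source used here says whether the counting used strand, so the reads of this pair cannot be told apart and the LPCAT3 value is uncertain.

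SMPDL3A, a secreted phosphodiesterase related to acid sphingomyelinase and an LXR target in human macrophages, was at the limit of counting (ENSG00000172594, chromosome 6, 122789049 to 122809720, plus strand). It was counted 0 and 5 times in sh-Scb, against 2 and 5 times in sh-SOX4. These values are at or near the floor of 3 counts, so no fold is given and a change was not detectable at this depth. It was the 1 member left out of the test. Over the 8 tested members, the groups did not overlap in 7, against 72.9% of all IDs tested.

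**Figure D2:**
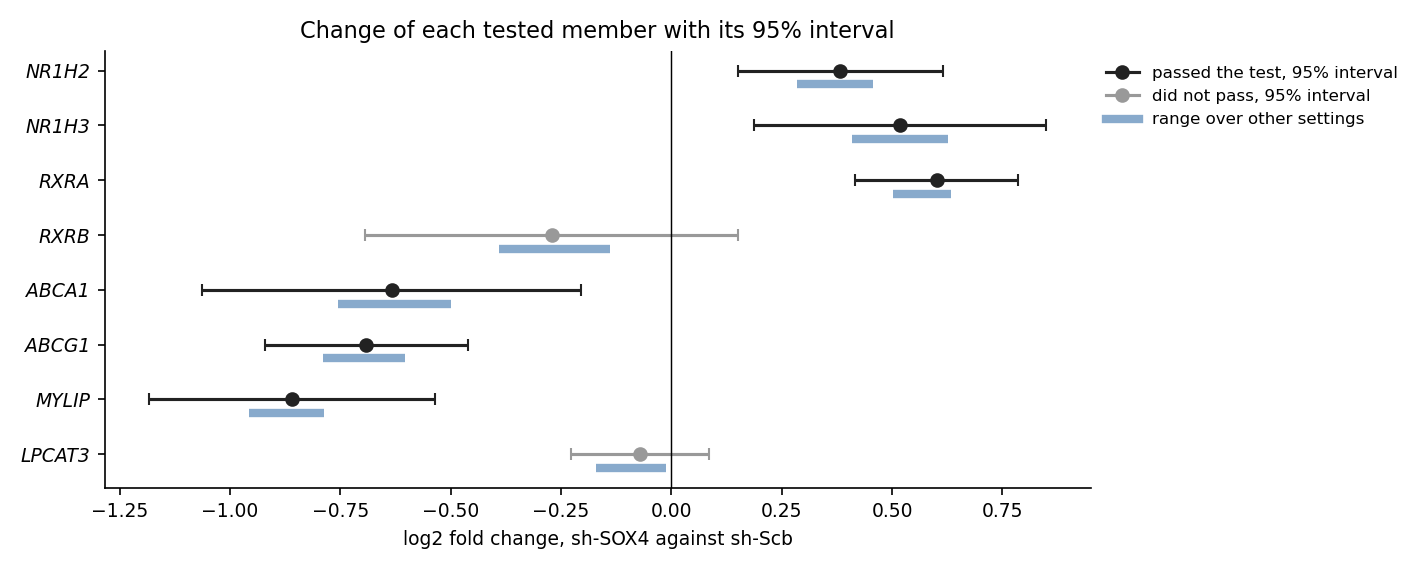
Log2 fold change of each tested member, sh-SOX4 against sh-Scb, with its 95% interval from the edgeR model (points and whiskers) and the range of the estimate over the other settings (bars). The intervals of the 6 called members exclude 0, those of RXRB and LPCAT3 include it, and no bar crosses 0.

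Per length of annotated exon, the order of the members in sh-Scb was LPCAT3, ABCG1, NR1H2, MYLIP, RXRA, NR1H3, RXRB, ABCA1 and SMPDL3A. The places of RXRB, whose level may be partial and could belong above NR1H3 and RXRA, and of LPCAT3, whose reads cannot be told apart from those of EMG1, are uncertain in both groups. In sh-Scb, LPCAT3 stood at 11.5 CPM per kb, ABCG1 at 4.66, NR1H2 at 4.41 and MYLIP at 3.70. RXRA stood at 2.29, NR1H3 at 1.74, RXRB at 1.35, ABCA1 at 0.547 and SMPDL3A at 0.0353 CPM per kb. No neighbours in this order had overlapping library values, although those of ABCG1 and NR1H2 came close. In sh-SOX4 the order was LPCAT3, NR1H2, RXRA, ABCG1, NR1H3, MYLIP, RXRB, ABCA1 and SMPDL3A. NR1H2 and RXRA had come to lie above ABCG1, at 5.75 and 3.48 against 2.89 CPM per kb, and NR1H3 above MYLIP, at 2.49 against 2.04. These levels use all annotated exons as the length, so a gene that uses few of them is understated.

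**Figure D3:**
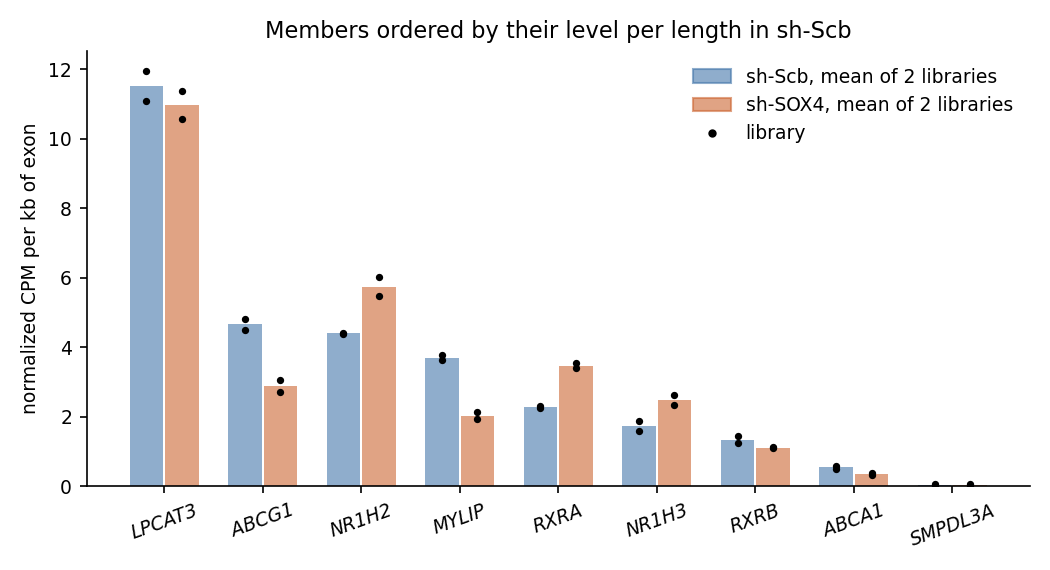
Normalized CPM per kb of annotated exon for the 9 members, ordered by the sh-Scb mean, with bars at the mean of 2 libraries and points at each library. The sh-SOX4 bars of NR1H2, RXRA and NR1H3 are taller than their sh-Scb bars, and those of ABCG1, MYLIP and ABCA1 are shorter.

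Within the pairs of related members, the balance can be read library by library. NR1H2 exceeded NR1H3 per length by 2.74 and 2.35 times in sh-Scb and by 2.34 and 2.28 times in sh-SOX4, so LXR-beta was the more abundant transcript in all 4 libraries. No ratio of RXRA to RXRB is given, because the level of RXRB may be partial. ABCG1 exceeded ABCA1 by 8.12 and 9.0 times in sh-Scb and by 8.30 and 8.08 times in sh-SOX4. The ratios of the transporters thus overlapped between the groups while both genes fell.

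Other genes of the pathway were read from lists built by function, with earlier results of these data known, and are given by counts and medians against the 44.1% of IDs called. Of 19 tested LXR partners, corepressors and coactivators, 7 rose and 1 fell, with a median log2 fold change of 0.12. NCOR1, a corepressor that unliganded LXR is known to hold, did not pass the test, at 204 and 206 CPM in sh-Scb and at 216 and 215 in sh-SOX4. GPS2, a subunit of the corepressor complex, rose from 47.6 and 44.4 to 67.9 and 73.9 CPM, but 52.5% of its exonic bases are shared with other genes, EIF5A among them. The coactivators NCOA5 and CREBBP rose 1.74-fold and 1.40-fold, while NCOA3 fell from 73.0 and 74.5 to 51.1 and 50.6 CPM. CCAR2 and COPS2 rose by 0.43 and 0.40 on the log2 scale, but CCAR2 shares 38.2% of its exonic bases with other annotated genes. EdgeR adjusted p-values for these 6 called genes ran from 1.42e-05 for NCOA5 to 0.000208 for CREBBP.

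Genes that supply or remove the oxysterol ligands were mostly lower. Of 13 listed, 8 were tested, 5 fell and 2 rose, with a median of -0.49. CYP46A1, which makes 24-hydroxycholesterol, fell from 14.7 and 15.2 to 7.25 and 8.33 CPM, with an edgeR adjusted p of 0.000246. The other oxysterol-forming enzymes were barely counted: the counts of CH25H were 2 and 0 for sh-Scb, 7 and 0 for sh-SOX4, and CYP27A1 had 9, 2, 3 and 2 counts over the libraries. CYP7A1 and CYP7B1, also in this list, were at 0 in all 4 libraries. Of the late sterol synthesis enzymes, whose substrates include LXR-activating sterols, DHCR7 fell by 1.66, CYP51A1 fell by 0.89 and EBP fell by 0.59 on the log2 scale. CYP51A1 shares 83.2% of its exonic bases with other annotated genes. The steroid sulfatase STS rose from 8.09 and 8.73 to 14.3 and 13.5 CPM.

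Among 38 other genes reported as LXR targets in some tissue, 23 were tested, 9 fell and 3 rose, with a median of -0.46. SREBF1, the lipogenic regulator that LXR is known to induce, fell from 196 and 205 to 116 and 123 CPM, a change of -0.74 (SE 0.050) on the log2 scale with an edgeR adjusted p of 1.96e-06. ABCA7, a lipid transporter close to ABCA1, fell from 57.2 and 55.2 to 29.9 and 28.0 CPM. LRP1, a large endocytic receptor, fell from 40.7 and 44.3 to 22.4 and 19.6 CPM. SCD and VEGFA fell by 1.72 and 1.08 on the log2 scale, and both are also known targets of other pathways, SREBP for SCD and hypoxia for VEGFA. LIMA1 rose from 60.6 and 62.5 to 108 and 105 CPM. Further genes of this list are named after their values were seen. APOE, the apolipoprotein, fell from counts of 80 and 93 to counts of 46 and 34, with an edgeR adjusted p of 0.0241 that passed under 7 of 10 other settings. MERTK, a phagocytic receptor gene, did not pass, with a log2 fold change of -0.17. ABCG4, the closest relative of ABCG1, did not pass, with 5.24 and 7.80 CPM for sh-Scb and 3.75 and 4.87 for sh-SOX4.

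**Figure D4:**
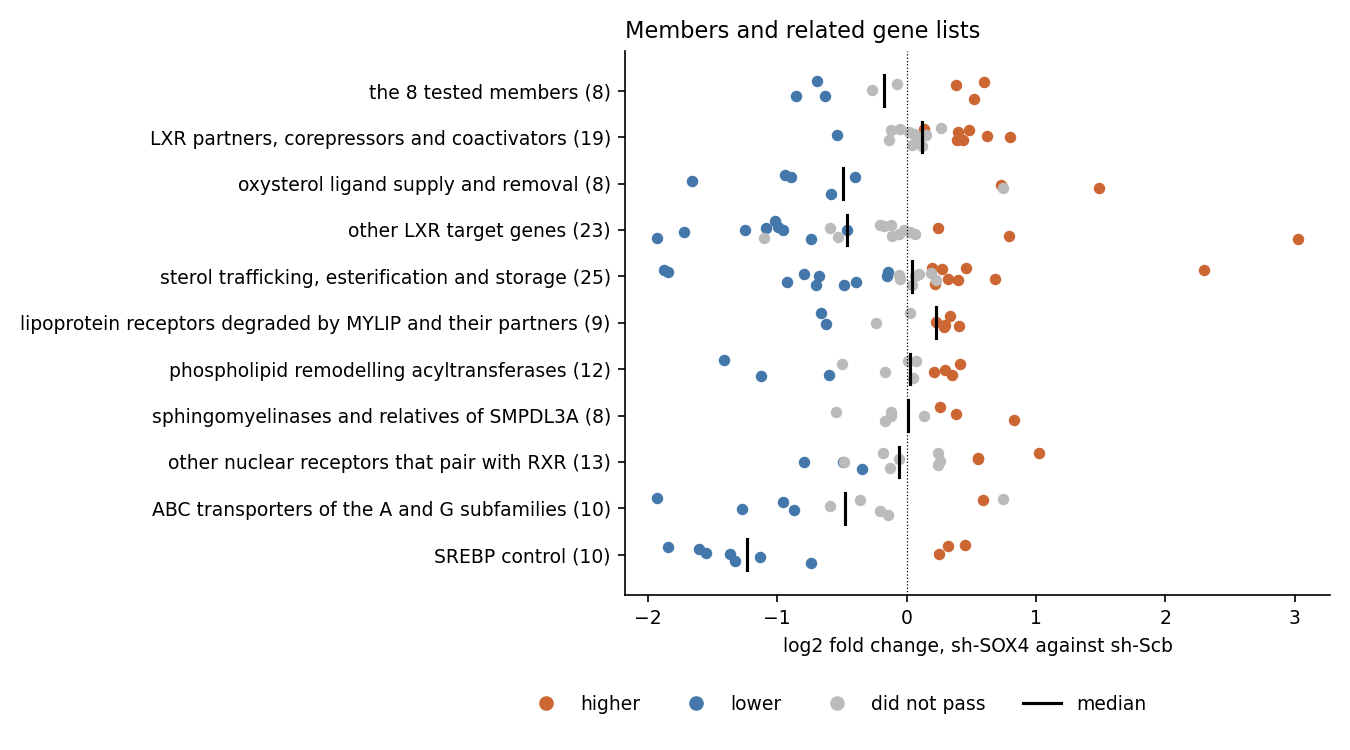
Log2 fold change, sh-SOX4 against sh-Scb, of each tested gene in the members and in 10 related lists, with the number tested in brackets and a bar at the median. Points stand for genes that were higher, lower or did not pass the test. The medians of the SREBP control, oxysterol supply, other LXR target and ABC transporter lists lie at -1.23, -0.49, -0.46 and -0.48. SREBF1 and 5 ABC transporters stand in 2 lists, and not all of these transporters were tested and drawn.

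The lipoprotein receptors that MYLIP protein is known to mark for degradation did not move as one at the transcript level. VLDLR fell from 74.4 and 73.8 to 48.1 and 48.0 CPM. LRP8 rose from 89.4 and 89.8 to 103 and 107 CPM. Of the ubiquitin-conjugating enzymes that MYLIP works with, UBE2D3 and UBE2D2 rose 1.32-fold and 1.23-fold, and USP8, a deubiquitinase, rose 1.22-fold. UBE2D1 and the deubiquitinase USP2, named after their values were seen, did not pass, with log2 fold changes of 0.02 and -0.24. Over the 9 tested genes of this list, 5 rose and 2 fell, with a median of 0.22. All 10 SREBP control genes were called, 7 lower and 3 higher, with a median of -1.23. SREBF2, the gene of the sterol regulator SREBP2, fell from 604 and 613 to 201 and 213 CPM. INSIG1 and INSIG2, which retain the SREBP escort in the endoplasmic reticulum, fell by 1.13 and 1.61 on the log2 scale.

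Of 10 tested transporters of the A and G subfamilies other than the members, 4 fell and 1 rose, with a median of -0.48. ABCA2, a lysosomal sterol and lipid transporter, fell from 120 and 123 to 49.8 and 50.5 CPM, and ABCA5 fell from 40.4 and 42.3 to 23.1 and 22.0 CPM. ABCG5 fell from 19 counts in each sh-Scb library to 7 and 2 counts, and passed under 4 of 9 other settings. ABCA4, the retinal transporter, rose by 0.59 on the log2 scale with an edgeR adjusted p of 0.0432, and passed under 5 of 10 other settings.

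Of 25 tested sterol trafficking genes, 8 rose and 10 fell, with a median of 0.04. STARD4, a cytosolic sterol carrier, fell from 382 and 435 to 117 and 106 CPM, and OSBPL5, an oxysterol-binding protein relative, fell from 36.8 and 37.2 to 9.59 and 11.0 CPM. Its relative OSBPL10 rose from 1.30 and 1.20 to 6.09 and 6.25 CPM. NPC2, which takes cholesterol out of the lysosome, fell from 64.8 and 63.3 to 44.4 and 47.2 CPM. OSBPL2 and GRAMD1C fell by 0.70 and 0.92 on the log2 scale. SCARB1, a receptor that exchanges cholesterol with high-density lipoprotein and is named after its values were seen, rose from 56.1 and 55.2 to 67.6 and 71.2 CPM, in the direction opposite to ABCA1 and ABCG1.

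Relatives of LPCAT3 and SMPDL3A did not follow 1 direction. Of 12 tested acyltransferases of phospholipid remodelling, 4 rose and 3 fell, with a median of 0.03. LPCAT4 fell from 51.0 and 49.2 to 23.6 and 22.4 CPM and MBOAT2 fell by 0.60 on the log2 scale, while LPCAT1 rose from 59.2 and 54.5 to 74.1 and 77.3 CPM. Of 8 tested sphingomyelinases and relatives, 3 rose and none fell, with a median of 0.01. The acid sphingomyelinase gene SMPD1 rose 1.30-fold, with an edgeR adjusted p of 0.0151, and passed under 8 of 11 other settings. SMPD2 rose 1.77-fold, but 20.3% of its exonic bases are shared with another gene. SMPDL3B, the nearest relative of SMPDL3A, was counted 96 and 80 times for sh-Scb, 100 and 76 times for sh-SOX4, and did not pass.

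RXR serves other receptors as well as LXR. Of 13 tested nuclear receptors that can pair with it or share its sites, 3 rose and 3 fell, with a median of -0.06. RARA, a retinoic acid receptor, rose from 12.8 and 14.6 to 17.5 and 22.6 CPM. PPARA, a fatty acid receptor, fell from 63.5 and 70.6 to 52.7 and 52.7 CPM. NR1D1, a circadian repressor, rose from 7.12 and 5.98 to 11.8 and 14.9 CPM, NR1D2 rose 1.47-fold, and NR2F2 and NR4A1 fell by 0.79 and 0.49 on the log2 scale.

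The 5 genes with the pattern most like that of MYLIP, the member with the largest change, were SEC31B, FAM78A, UVSSA, SERINC2 and SPEG. Likeness was the distance between the 4 log2 CPM values, each centred on its gene's mean, over 4 libraries and 11948 other IDs with a symbol and a mean log2 CPM of at least 2. The distances ran from 0.0250 for SEC31B to 0.0394 for SPEG, and the log2 fold changes from -0.87 for SPEG to -0.82 for UVSSA. With 4 libraries in 2 groups this says little more than that the genes fell by a like amount.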

How the data were processed

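RNA-seq of 2 sh-Scb and 2 sh-SOX4 Jurkat libraries (TRIzol RNA, an Illumina TruSeq kit, per the labels' protocols) was used. The authors deposited raw counts per Ensembl gene, whole numbers with no normalization. HISAT2 2.2.0, StringTie and hg38 stand in the submitters' processing notes, with roles, annotation and strand setting not given in the sources used here. Control columns named NC were taken as sh-Scb, the only control in the labels.

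IDs passing filterByExpr (minimum count 10, total 15) were fitted by group with TMM scaling and the robust quasi-likelihood test of edgeR 4.0.16 (R 4.3.3), with Benjamini-Hochberg adjustment over 19897 IDs. SEs are the log2 fold change over the root of F. The design leaves 2 residual degrees of freedom. The intervals and p-values use the total of the test, which adds those that edgeR borrows across genes. No label says that libraries come from separate cultures: p-values reflect the spread of these samples alone, possibly technical. Floors cover counting error only. Replicates differed by more than sampling noise (median chi-square per gene 1.56 and 1.49, against 0.455). Coordinates and exons are from GENCODE 29 on GRCh38, promoters from RefSeq. The scripts were tested on simulated counts.

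Alternatives were DESeq2 1.42.0, limma-voom (limma 3.58.1), DESeq2's size factors, scaling to totals, an open filter, a filter of 10 CPM in 2 libraries, a replicate block and omission of each library. Members and lists were chosen with earlier results of these data known. Named are SOX4, all members, up to 6 called genes per list by adjusted p, list genes at 0, markers by level and the 5 nearest patterns. EMG1, ACP2, SLC39A7, NCOR1, CH25H, CYP27A1, SMPDL3B and those marked in the text were named after their values were seen. Some genes of the lists are counted in them but are not reported here by name.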

Additional observations from a re-analysis of the deposited data

How the results depend on the processing

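Every tested member kept its direction under all alternatives run. RXRA, ABCG1 and MYLIP passed in each. ABCA1 had a log2 fold change of -0.64 in DESeq2 and did not pass (adjusted p = 0.0796). Leaving out 1 library moved ABCA1 between -0.75 and -0.50, NR1H2 between 0.31 and 0.46 and NR1H3 between 0.41 and 0.63, with the losses of call named beside each gene. Without sh-SOX4 replicate 2, 1 member was called higher in place of 3, and over the libraries left out this count ran from 1 to 3. RXRB and LPCAT3 passed under none, with log2 fold changes of -0.39 to -0.14 and -0.17 to -0.01. The filter of at least 10 CPM left out RXRB and ABCA1. Under scaling to library totals the median over all IDs was -0.11 on the log2 scale, and the calls went from 4609 higher and 4166 lower to 3629 and 5260, or from 52.5% to 40.8% higher. With the filter of at least 10 CPM 3578 were higher and 3571 lower. Same-numbered libraries did not deviate together over the IDs tested (correlation -0.01). With 2 libraries per group this cannot tell whether the numbers mark a shared culture or preparation. With the replicate block 4422 IDs were higher and 3956 lower, and no call of a member changed. The depth limits SMPDL3A, and the arm of 1 library left by each omission is assumed to vary like the other group.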
